A study of Mus musculus with 12 samples.

Results

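The histone genes described here are the 67 genes, of 18097 on the array, whose symbols begin with Hist1h, Hist2h, Hist3h, Hist4h, H2af, H3f3 or H1f in both deposited tables. The array holds 73 probes for them among 25697 in all, and 5 of the genes had more than 1 probe. Each gene was represented by its brightest probe, by the mean signal of all 12 arrays. Of the 67 genes, 56 lie in the Hist clusters (6 for H1, 15 for H2A, 15 for H2B, 9 for H3 and 11 for H4) and 11 lie outside them (4 for H1, 5 for H2A and 2 for H3).

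The samples came from the hippocampus and the cortex of male 3×TgAD mice, a line whose transgenes carry human mutations linked to Alzheimer's disease and to tauopathy, aged 18 months. From the age of 14 months the AMI group drank amitriptyline-hydrochloride, a tricyclic antidepressant, at 100 µg per g of body weight for 4 months, and the vehicle group drank plain water. Mice of both groups also received BrdU, a thymidine analogue that marks dividing cells. Each tissue and treatment had 3 arrays, and no wild type mice were on these arrays.

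Histones are the proteins around which DNA is wound, with H2A, H2B, H3 and H4 in the core particle and H1 on the linker DNA. The replication-dependent histones of the Hist clusters are made mainly in S phase, and most of their mRNAs end in a stem-loop without a poly(A) tail. Replacement histones such as H3.3 and H2A.Z are made throughout the cell cycle and in resting cells from polyadenylated mRNAs, and they are the main supply of new histones in neurons. Some cluster genes are also known to give polyadenylated mRNAs in resting cells. Per the labels, RNA was primed with oligo-dT, which anneals to poly(A) tails, so the method favours tailed RNA. Whether a signal came from a tailed or a tailless transcript was not measured.

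Several cluster genes have almost the same sequence, so the probes that carry the results are shown first. Probes of 19 members, in 7 sets, shared at least 90% of bases over at least 25 aligned bases, or an identical run of at least 25 bases, with the probe of another member. Signals within such a set cannot be assigned to 1 gene with certainty. Probes were compared only with each other and not with transcripts, so whether a probe outside the sets also reads another gene was not tested. In each set below, capitals in the first probe mark the longest run that it shares with the second, and capitals in the others mark the longest run shared with the first.

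The 4 H2A probes, at positions 331 to 342 of their listed transcripts, are shown because they moved together between cortical arrays.
Hist1h2ao: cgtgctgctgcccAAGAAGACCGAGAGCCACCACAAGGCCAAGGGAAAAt
Hist1h2an: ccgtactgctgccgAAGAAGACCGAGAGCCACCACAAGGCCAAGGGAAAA
Hist1h2af: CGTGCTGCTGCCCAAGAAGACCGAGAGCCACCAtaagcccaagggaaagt
Hist2h2ac: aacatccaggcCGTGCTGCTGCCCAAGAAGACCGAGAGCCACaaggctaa

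The 3 H2B probes below, at positions 1 to 16 of their transcripts, and the 2 H3 probes after them belong to sets in which all members were higher in the hippocampus.
Hist1h2bf: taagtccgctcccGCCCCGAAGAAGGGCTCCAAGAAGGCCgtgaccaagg
Hist1h2bh: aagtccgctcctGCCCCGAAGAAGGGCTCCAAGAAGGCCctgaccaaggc
Hist1h2bn: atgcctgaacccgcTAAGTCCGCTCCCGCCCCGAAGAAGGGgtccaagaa
Hist2h3b: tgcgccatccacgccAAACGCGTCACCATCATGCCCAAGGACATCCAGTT
Hist2h3c1: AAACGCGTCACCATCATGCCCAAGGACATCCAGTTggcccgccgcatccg

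The 2 H4 probes shared 47 of 50 bases and were detected mainly in the hippocampus.
Hist1h4m: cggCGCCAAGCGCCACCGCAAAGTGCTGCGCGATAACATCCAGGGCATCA
Hist1h4k: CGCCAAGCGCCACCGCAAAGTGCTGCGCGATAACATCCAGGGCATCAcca

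By contrast, the probes of H2afz and H3f3a, which encode the replacement histones H2A.Z and H3.3, had no near-identical partner among the members.
H2afz: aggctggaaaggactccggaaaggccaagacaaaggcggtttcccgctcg
H3f3a: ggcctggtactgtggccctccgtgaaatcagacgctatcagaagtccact

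All 67 members matched a gene of the RefSeq annotation of GRCm38.p6, in which the cluster genes have newer names (Hist1h2bc is H2bc4 and Hist1h2ao is H2ac24). In that build the 44 Hist1 members lay on chromosome 13 between 21717628 and 23934913, the 8 Hist2 members on chromosome 3 between 96219885 and 96270192, the 3 Hist3 members on chromosome 11 and the Hist4 member on chromosome 6. Many H2A and H2B genes of the clusters stand head to head and share the DNA between them as a promoter. The window of 250 bases before to 50 bases after the start of Hist1h2ad, an H2A gene, shared 273 of its 300 bases with the window of its neighbour Hist1h2bf, an H2B gene. Both genes were detected on all 12 arrays. The window is shown on the plus strand, from RefSeq GRCm38.p6, with matches to CCAAT and TATAAA on either strand in capitals.
Hist1h2ad, chr13:23574131-23574430: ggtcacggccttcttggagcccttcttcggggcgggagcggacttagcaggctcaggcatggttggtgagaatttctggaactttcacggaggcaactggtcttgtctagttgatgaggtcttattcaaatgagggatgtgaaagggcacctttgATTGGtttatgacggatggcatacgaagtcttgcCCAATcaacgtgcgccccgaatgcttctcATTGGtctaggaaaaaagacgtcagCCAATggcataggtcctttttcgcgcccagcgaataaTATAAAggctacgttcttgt

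This window held 4 matches to the first motif and 1 to the second, and the matches do not overlap. Over the 50 cluster genes with a RefSeq promoter window, 42 held the CCAAT motif on either strand and 30 held the TATA motif, beside 37.9% and 14.2% of all 27025 windows of that length.

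The octamer motif ATTTGCAT, searched on both strands too, was in 13 of the 50 cluster windows and in 1.75% of all windows. Of the 9 windows of genes outside the clusters, 5 held the first motif, 1 the second and 1 the octamer. Among cluster genes detected on all 12 arrays, 21 of 24 windows held the first motif, 13 the second and 4 the octamer. Among those detected on no array, 17 of 19 held the first, 11 the second and 8 the octamer. A match is a description of letters in the window, and binding was not measured.

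Detection was asked first. A gene counted as detected in a group when all 3 arrays gave its probe a detection p of at most 0.05. In the hippocampus 37 of 67 histone genes (55.2%) were detected after AMI and 37 after vehicle, beside 51.2% and 50.9% of all genes. In the cortex 33 (49.3%) were detected after AMI and 35 (52.2%) after vehicle, beside 50.2% and 50.3%. Over all 12 arrays 33 histone genes (49.3%) were detected on every array, beside 47% of all genes, and 25 (37.3%) on none, beside 37.2%. The share of detected histone genes thus lay near that of all genes in each group. The single arrays detected 34 to 41 members.

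Detection was also counted by class. Among cluster genes, 9 of 15 for H2B and 8 of 15 for H2A were detected on all 12 arrays, beside 4 of 9 for H3, 4 of 11 for H4 and 1 of 6 for H1. Outside the clusters 7 of 11 were detected on all 12 arrays, and of all genes 47%. Near-identical probes are counted singly here. They include those of all these H2A genes but Hist2h2aa1, of the 4 H3 genes, and of Hist1h2bf, Hist1h2bh, Hist1h2bn, Hist1h4f and Hist1h4i. The counts are thus not of separate signals, and the classes are small. The only cluster H1 gene detected throughout was Hist1h1c, which encodes the linker histone H1.2. Its signals were 500.9, 1435 and 910.1 after AMI and 557.8, 887.3 and 1320 after vehicle in the hippocampus, and 728.2, 1302 and 553.9 after AMI and 728.7, 719.2 and 578.5 after vehicle in the cortex. These values are bead intensities on a linear scale, not normalized between arrays. They overlapped between all groups.

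The 25 genes detected on no array included histones known from germ cells. These were Hist1h1t and H1fnt, linker histones of the testis, H1foo, the linker histone of the oocyte, and Hist1h2aa and Hist1h2ba, H2A and H2B forms of the testis. H1foo, for example, read 49.95 to 55.92 on the 6 hippocampal and 60.01 to 64.01 on the 6 cortical arrays, beside a median of undetected probes of 52.2 to 73.2 per array. The linker genes Hist1h1a, Hist1h1d and Hist1h1e and the H3 genes Hist1h3a, Hist1h3c, Hist1h3f, Hist1h3g and Hist1h3h were also on no array above background. An undetected probe bounds the signal only for its own sequence. This matters for Hist1h2bc, whose used probe was detected on all 12 arrays while its other probe, at position 643 of the transcript instead of 462, was detected on none.

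**Figure D1:**
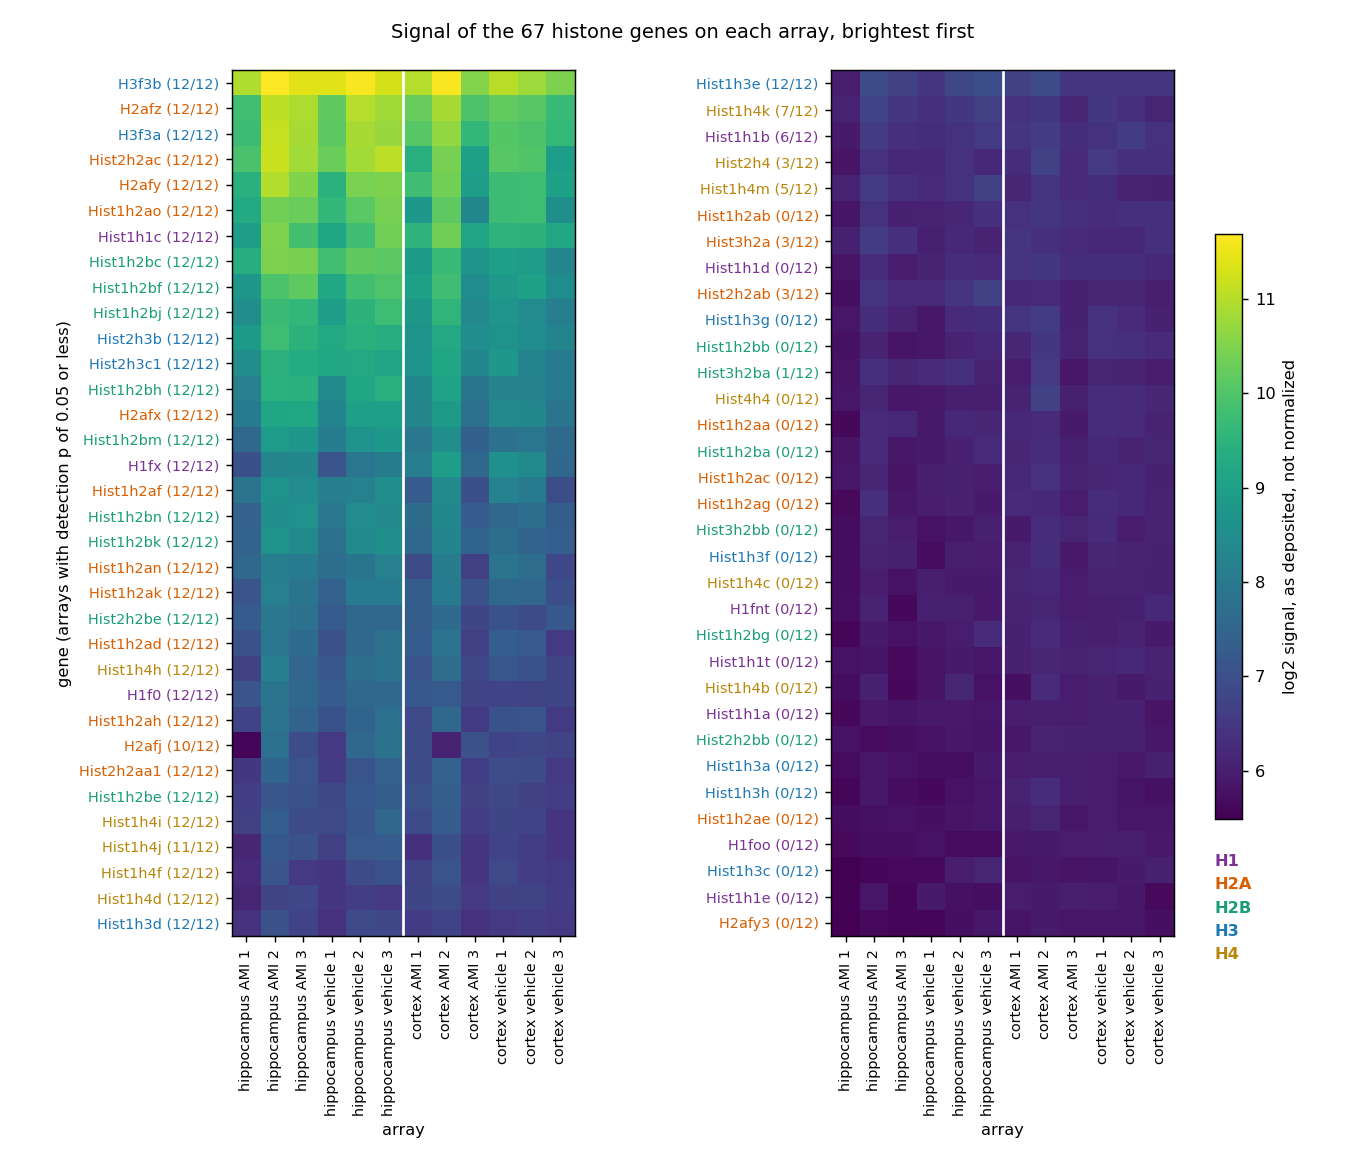
Each row is a histone gene, with the number of arrays of 12 on which it was detected in brackets, and each column is an array. The colour is the log2 of the deposited signal, and genes are ordered by mean signal for display only, since signals of different probes are not comparable. The 33 genes detected on all 12 arrays fill most of the left panel, and the 25 detected on none are in the right panel.

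Among the 9 genes detected on some arrays, 4 were detected in only 1 tissue. Hist1h4m, an H4 gene, was detected on 5 of 6 hippocampal arrays and on 0 of 6 cortical arrays, with signals of 69.1, 93.96 and 79.5 after AMI and 76.5, 84.7 and 102.2 after vehicle in the hippocampus. Hist3h2a, an H2A gene, was detected on all 3 hippocampal AMI arrays (65.4, 96.5 and 80.6) and on no other array. Hist2h2ab, also an H2A gene, was detected on all 3 hippocampal vehicle arrays (75.5, 87.9 and 104.0) and on no other array. Hist3h2ba was detected on 1 array, of the hippocampus after vehicle. These signals stood little above the dimmest detected probe of any gene, which read 63.3 to 104.9 depending on the array. The other partly detected genes were Hist1h4j on 11 arrays, H2afj on 10, Hist1h4k on 7, Hist1h1b on 6 and Hist2h4 on 3. Of these, Hist1h4k, whose probe overlaps that of Hist1h4m, was detected on all 6 hippocampal arrays and on 1 cortical array.

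The replacement histones were detected widely. H3f3a and H3f3b, which both encode H3.3, H2afz, H2afx (the histone phosphorylated at DNA breaks), H2afy (macroH2A1), H1f0 (the linker histone of resting and differentiated cells) and H1fx were detected on all 12 arrays. H2afy3 was detected on none. H3f3a is a member with 2 probes, of which the used one was detected on 12 arrays and the other on 1, so its values rest on a single probe. For H1fx both probes were detected on all 12 arrays.

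Levels were then compared between the tissues, on log2 signals z-normalized within each array then rescaled to log2 units by the average of the array SDs, which puts the mean of an array at 0. The hippocampal and the cortical arrays were deposited as separate exports of different software versions, so export batch and tissue cannot be told apart in any of these tissue differences. In whole tissue, moreover, fewer cells of a type and less RNA per cell cannot be told apart. Of 40 histone genes tested, 29 were higher in the hippocampus and 0 were lower at an adjusted p under 0.05 (limma, Benjamini-Hochberg over 13677 probes), beside 24.1% of all 10267 tested genes higher and 18.9% lower (43% in all). The 6 hippocampal values lay wholly above the 6 cortical values for 11 of 40 members (27.5%) and wholly below them for 0, beside 13.3% and 9.63% of all genes (22.9% in all). Of the 40 members, 5 entered the test through the hippocampus alone. They were Hist1h4k, Hist1h4m, Hist2h2ab, Hist1h1b and Hist3h2a, detected on 1, 0, 0, 2 and 0 cortical arrays. The first 3 of them are among the 29 calls, and Hist1h4k and Hist1h4m are also among the 11 without overlap. Over the 35 members detected on at least 3 arrays of both tissues, 26 were higher and 0 lower, beside 23.8% and 18.9% of all genes so detected. The median difference was 0.39 for histone genes and 0.03 for all genes on the log2 scale, and 38 of 40 differences were above 0, beside 54.2% of all genes. The median was 0.42 between the vehicle groups, with 37 of 40 above 0, and 0.32 between the AMI groups, with 35 of 40 above 0. Counting each set of near-identical probes once, 19 of 29 sets and single probes had a called member, and of the 22 members without a near-identical partner 13 were higher.

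All 9 tested H2B genes were called higher in the hippocampus, by 0.22 to 0.94 on the log2 scale, and each was detected on all 12 arrays. With the replicate number as a block 8 held and Hist1h2be did not. Hist1h2bc had the largest difference of all members. Its signals were 652.5, 1422 and 1361 after AMI and 893.0, 1153 and 1110 after vehicle in the hippocampus, and 463.6, 813.7 and 415.2 after AMI and 506.2, 482.5 and 330.7 after vehicle in the cortex. After normalization its 6 hippocampal arrays (2.79 ± 0.14, SD) lay wholly above its 6 cortical arrays (1.85 ± 0.21), a difference of 0.94 (SE 0.10, adjusted p = 1.04e-05 with limma). Hist1h2bh (0.56) and Hist2h2be (0.44) likewise did not overlap between the tissues, while Hist1h2bk (0.53), Hist1h2bn (0.53), Hist1h2bj (0.52), Hist1h2bm (0.51), Hist1h2bf (0.50) and Hist1h2be (0.22) were higher with some overlap. The probes of Hist1h2bc, Hist1h2bk, Hist1h2bj, Hist1h2bm, Hist2h2be and Hist1h2be had no near-identical partner among the member probes. Thus 6 of the 9 H2B calls rested on probes outside the sets. Whether these probes also match transcripts of other H2B genes was not tested.

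Of 4 tested cluster H3 genes 3 were higher in the hippocampus. Hist2h3b stood at 2.13 ± 0.17 in hippocampal and 1.58 ± 0.13 in cortical arrays (SD, n = 6 each), with no overlap and an adjusted p of 1.76e-04 with limma. Hist2h3c1, whose probe shares 35 bases with it, was higher by 0.46 and also without overlap, and Hist1h3d was higher by 0.23. A second probe assigned to Hist2h3c1, under another accession, went the other way. This second probe was detected on 5 cortical and 0 hippocampal arrays, so its difference is a bound of at least 1.0775-fold higher in the cortex. Its measured means were -0.66 and -0.92 (adjusted p = 0.00358 with limma). It entered the test through the cortex alone. Hist1h3e differed by 0.17 (adjusted p = 0.108 with limma).

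For H4, 3 of the 5 genes detected in both tissues were higher, namely Hist1h4h (0.44), Hist1h4j (0.41) and Hist1h4i (0.37). Hist1h4k and Hist1h4m were also called, but both entered the test through the hippocampus alone. Hist1h4k was above background on 6 of 6 hippocampal and 1 of 6 cortical arrays, so its cortical level was mostly not measured and no difference is given. Because Hist1h4m was not above background in the cortex, its difference is a bound of at least 1.04-fold, with measured means of -0.68 and -1.004 and an adjusted p of 0.00284 with limma. Hist1h4f (0.10) and Hist1h4d (-0.06) did not pass the test.

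For H2A, 8 of 10 tested cluster genes were called higher. Hist2h2ac stood at 3.39 ± 0.14 in hippocampal and 2.62 ± 0.41 in cortical arrays (SD, n = 6 each) without overlap, a difference of 0.77 (SE 0.16, adjusted p = 0.0016 with limma). Hist1h2af (0.63), Hist1h2an (0.59) and Hist1h2ao (0.57), which share its probe set, were higher with overlap, as were Hist1h2ah (0.50), Hist1h2ad (0.40) and Hist1h2ak (0.39), which form a set of their own. Hist2h2ab was called too, but it was not above background in the cortex and its bound is under 1, so no fold is given. Hist2h2aa1 (0.20) did not pass, nor did Hist3h2a, which was not above background in the cortex either. The calls of Hist1h2af and Hist1h2ao did not hold without hippocampal vehicle replicate 3, and those of Hist1h2af, Hist1h2an and Hist1h2ao did not hold without cortical AMI replicate 1 or without cortical AMI replicate 3. The call of Hist1h2ao was also lost without cortical vehicle replicate 3, without hippocampal AMI replicate 1 or 3, or without hippocampal vehicle replicate 1. Hist1h2ad, at an adjusted p of 0.049 with limma, did not hold with the replicate block, and kept its call only without hippocampal vehicle replicate 1, cortical AMI replicate 2 or cortical vehicle replicate 1 or 2, among the 12 omissions of 1 array.

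Neither of the 2 tested H1 genes of the clusters passed the test. Hist1h1c had a mean of 2.50 in both tissues (SD 0.26 and 0.14, n = 6 each), a difference of 0.00 with an SE of 0.12, and Hist1h1b differed by 0.03. The 2 detected linker histones outside the clusters differed from each other. H1f0 read 0.42, 0.44 and 0.38 after AMI and 0.37, 0.28 and 0.35 after vehicle in the hippocampus, and 0.02, -0.18 and -0.28 after AMI and -0.43, -0.38 and -0.29 after vehicle in the cortex. All hippocampal values were above all cortical ones, and the difference was 0.63 (SE 0.06, adjusted p = 1e-05 with limma). H1fx stood at 0.64 ± 0.34 in hippocampal and 1.099 ± 0.42 in cortical arrays (SD, n = 6 each), a difference of -0.45 (SE 0.20) that did not pass (adjusted p = 0.0796 with limma). Its second probe gave -0.34 (adjusted p = 0.0829 with limma).

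Among the core replacement histones, H3f3a was higher in the hippocampus, at 3.28 ± 0.06 beside 3.00 ± 0.09 (SD, n = 6 each), with no overlap and an adjusted p of 0.00245 with limma. H2afx was higher by 0.40, also without overlap, and H2afy by 0.34 (adjusted p = 0.0432 with limma). The call of H2afy did not hold without hippocampal AMI or vehicle replicate 2 or 3, or without cortical AMI or vehicle replicate 3. For H3f3b, the other H3.3 gene, hippocampal replicates 1 stood high at 4.48 after AMI and 4.64 after vehicle, beside 3.73 to 4.00 on the other 4 hippocampal arrays and 3.86 to 4.07 in the cortex. Its tissue difference was 0.11 (SE 0.15, adjusted p = 0.572 with limma), below 0 with normalization within GC classes and past the threshold after median centring. H2afz differed by 0.15 (adjusted p = 0.0609 with limma) and passed after quantile normalization, median centring, neqc or normalization within GC classes. H2afj differed by 0.33 with an SE of 0.27, and its arrays spread widely, from -1.23 to 0.58 in the hippocampus and from -1.29 to 0.03 in the cortex.

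**Figure D2:**
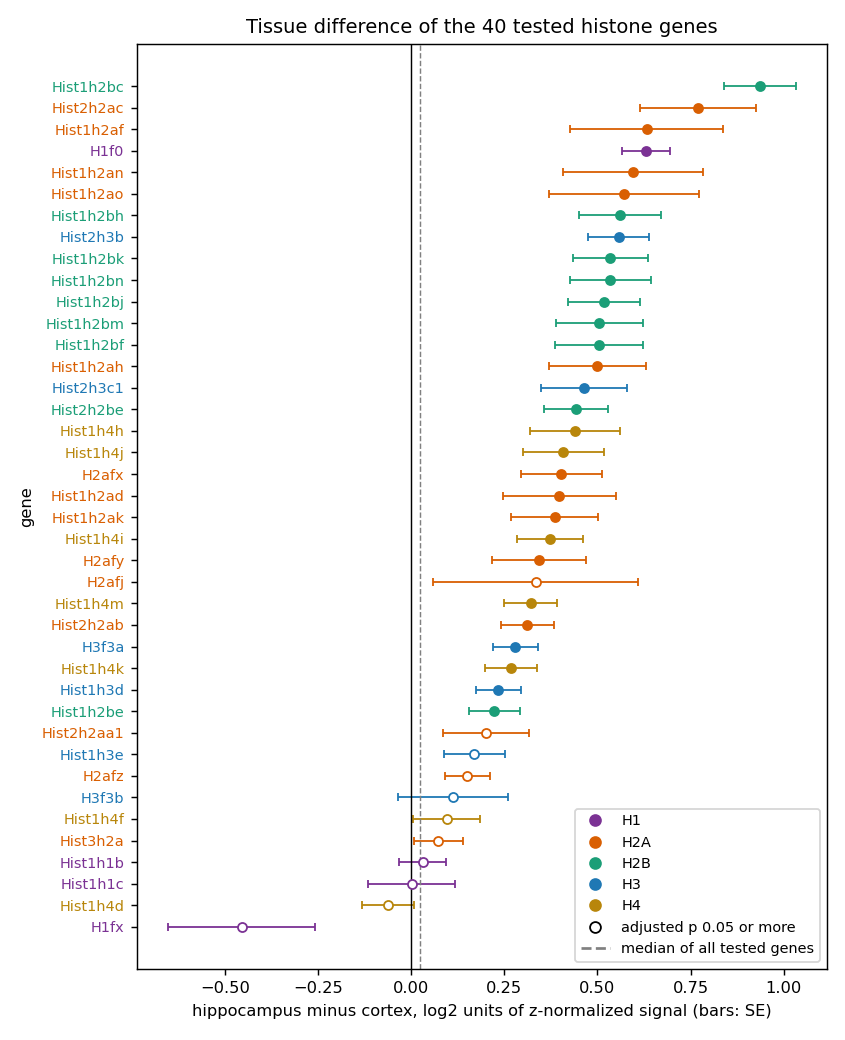
Points give the hippocampus minus cortex difference of each of the 40 tested histone genes in log2 units of z-normalized signal, with bars for 1 SE, coloured by histone. Filled points had an adjusted p under 0.05. All 29 filled points lie above 0, between 0.22 and 0.94, and the dashed line marks the median of all tested genes at 0.03. The filled points of Hist1h4k, Hist1h4m and Hist2h2ab entered the test through the hippocampus alone, so their positions are not measured differences. Over the 35 members detected in both tissues 26 were called higher.

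Probes of histone genes were rich in G and C, with a median GC content of 58.0% beside 52.0% for all genes. With z normalization inside 9 classes of probe GC content, an alternative chosen after the data were seen, 30 of 40 members were higher in the hippocampus and 0 lower, with a median of 0.40. Median centring moved the median of all genes to 0.21, and that of the histone genes to 0.56 with 31 calls, all higher. Cell type markers moved with the tissues as well, where 24.1% of all tested genes were called higher in the hippocampus and 18.9% lower. All 6 microglia markers were detected on all 12 arrays and were called higher in the hippocampus, where their mean level per array was 1.17 to 1.54 beside 0.679 to 0.998 in the cortex. Of 6 oligodendrocyte markers 4 were lower, with a mean level of 3.41 to 4.24 in the hippocampus and 3.97 to 4.56 in the cortex. Of 6 astrocyte markers Gfap was higher by 1.77, and Aqp4 (-0.39) and Slc1a2 (-0.29) were lower. Of 4 tested endothelium markers Tek (-0.28) and Flt1 (-0.27) were lower, and of 3 erythroid markers Hbb-b1 was higher by 0.71. Of 5 neuron markers on the array only Syt1 and Stmn2 were detected on all 12 arrays, Snap25 and Nefl on none and Tubb3 on 1, and the mean level was 1.23 to 1.52 and 1.32 to 1.57. Stmn2 was lower in the hippocampus (-0.32, adjusted p = 0.00655 with limma). Their part in the histone differences was not tested. As a check of the labels, Prox1, a factor of dentate granule cells, was higher in the hippocampus by 1.17 and Spink8, a gene of hippocampal pyramidal cells, by 3.57, while Wfs1, which marks a part of the hippocampus but is also made in cortex, differed by -0.55.

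Within the cortex the 4 H2A probes shown first fell into high and low arrays. Hist1h2ao gave signals of 440.0, 1139 and 323.1 after AMI and 854.0, 864.8 and 383.1 after vehicle. Hist1h2an gave 122.9, 275.8 and 101.9 after AMI and 233.1, 207.9 and 113.7 after vehicle. Cortical AMI replicates 1 and 3 and vehicle replicate 3 were low for both genes, and the other 3 cortical arrays were high. Low and high arrays thus occurred in both treatment groups, and the cause was not tested. After normalization, Hist1h2ao read 1.72, 2.58 and 1.503 after AMI and 2.70, 2.79 and 1.73 after vehicle, and Hist1h2af read 0.14, 0.98 and -0.0046 after AMI and 1.12, 0.96 and -0.08 after vehicle. Hist2h2ac was low on the same 3 arrays, at 2.38, 2.26 and 2.12 beside 2.84 to 3.05. In the hippocampus the 4 probes were even, with Hist1h2ao between 2.59 and 3.00 on 6 arrays. In the cortex the pattern was not limited to them. Hist1h2ak read 0.17, 0.57 and 0.03 after AMI and 0.41, 0.44 and -0.09 after vehicle. Hist1h2ah, H2afx and H1fx were also lowest on cortical AMI replicates 1 and 3 and vehicle replicate 3. So was Hist1h2ad, although its AMI replicate 1 (0.097) stood close to vehicle replicate 2 (0.108).

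The spread of the 4 H2A probes shown first between cortical arrays of 1 group stood near the top of all genes. The residual SD was 0.59 for Hist1h2af, 0.58 for Hist1h2ao, 0.545 for Hist1h2an and 0.44 for Hist2h2ac, at percentiles 99.4, 99.3, 99.2 and 98.1 of all genes tested there, whose median was 0.14. H2afj (0.49), H1fx (0.46) and Hist1h2ad (0.41) were also above percentile 97. H1fx read 1.04, 1.45 and 0.63 after AMI and 1.496, 1.40 and 0.57 after vehicle in the cortex. The H2B genes did not share this pattern to the same degree, and Hist1h2bc, for instance, had a residual SD of 0.21. In the hippocampus the widest spread was that of H2afj (0.675, percentile 99.6), followed by H3f3b (0.423, percentile 97.7). The SD of the log2 signals over all probes, a measure of an array's dynamic range, was 1.499, 1.684 and 1.419 on cortical AMI replicates 1 to 3 and 1.528, 1.509 and 1.418 on vehicle replicates 1 to 3, and its part in the pattern was not tested.

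**Figure D3:**
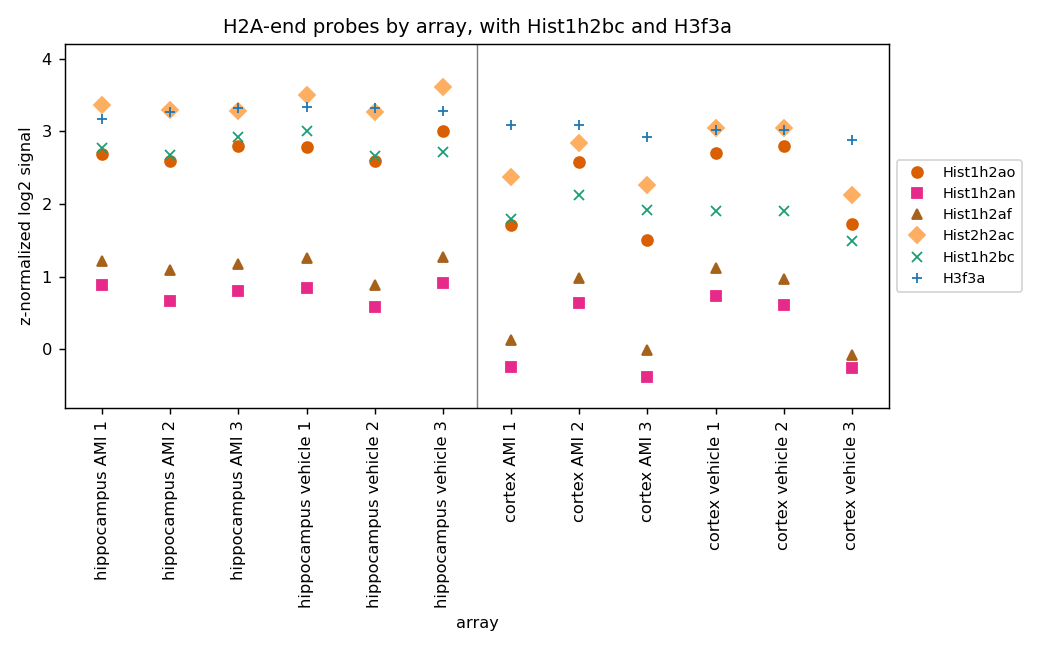
Each point is the z-normalized log2 signal of a probe on 1 array, with the hippocampal arrays left of the line and the cortical arrays right of it. The 4 H2A probes drop together on cortical AMI replicates 1 and 3 and vehicle replicate 3, to 1.503 to 1.73 for Hist1h2ao beside 2.58 to 2.79 on the other 3 cortical arrays, whereas H3f3a stays between 2.88 and 3.09 in the cortex. Members not drawn here, such as Hist1h2ak and H2afx, were lowest on the same cortical arrays.

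The effect of AMI was asked within each tissue. In the hippocampus 40 members were tested and 0 passed an adjusted p of 0.05 with limma, as for all genes (0% of 9933). At an unadjusted p under 0.05 there were 2 with limma (Hist3h2a and Hist2h2be, both higher after AMI) of 40, beside 2.47% of all genes (1.52% higher and 0.946% lower). Hist3h2a entered the test through its AMI arrays alone, and over the 38 members detected on at least 2 arrays of each group 1 remained, Hist2h2be, beside 2.25% of all genes so detected. The median difference was -0.06 beside 0.01 for all genes, with 13 members above 0 and 27 below, beside 53.8% of all genes above 0. The groups did not overlap for 5 of 40 members (12.5%), 3 higher and 2 lower, beside 8.01% of all genes (4.41% higher and 3.6% lower). Among the 5 are Hist3h2a, detected after AMI alone, and Hist2h2ab, detected after vehicle alone. Both entered the test only through the group where they were high. Of the oligodendrocyte markers 3 (Cnp, Mog and Mag) were lower after AMI at an unadjusted p under 0.05, the median over all 6 being -0.47, and the erythroid marker Hbb-b1 was higher by 0.86. Their part in the histone values was not tested.

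Hist2h2be, an H2B gene with a probe at position 2542 of its transcript, read 0.58, 0.48 and 0.61 after AMI and 0.32, 0.28 and 0.33 after vehicle in the hippocampus. The AMI arrays were all higher, by 0.25 on average (SE 0.09, adjusted p = 0.9996 with limma). Hist3h2a was not above background after vehicle, with means of -0.72 after AMI and -0.98 after vehicle. Its bound is at least 1.0255-fold higher after AMI (adjusted p = 0.9996 with limma). Hist2h2ab was the reverse, not above background after AMI, with means of -0.90 after AMI and -0.64 after vehicle and a bound of at least 1.096-fold higher after vehicle (adjusted p = 0.9996 with limma). H2afj had the largest difference, -0.50 with an SE of 0.39, and its groups overlapped. H1f0 was higher on all AMI arrays by 0.08, and Hist1h2be lower on all of them by 0.13, with SEs of 0.09 for each. With the replicate number as a block, 5 members had an unadjusted p under 0.05 with limma, with Hist3h2a and Hist2h2be higher and Hist2h2ab, H2afj and Hist1h4j lower, and 0 passed after adjustment. With that block 8.08% of all probes had such a p, beside 2.35% without it.

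In the cortex 35 members were tested and 0 passed an adjusted p of 0.05 with limma, again as for all genes (0% of 9798). At an unadjusted p under 0.05 there was 1 with limma, Hist1h2bj, of 35, beside 5.3% of all genes (3.17% higher and 2.12% lower). The median difference was 0.09 beside 0.01 for all genes, with 23 above 0 and 12 below, beside 54.2% of all genes above 0. The groups did not overlap for 4 of 35 members (11.4%), all higher after AMI, beside 11% of all genes (6.66% higher and 4.37% lower).

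All 9 H2B genes had differences above 0 in the cortex, from 0.05 to 0.33, and none passed after adjustment. The probes of Hist1h2bf, Hist1h2bh and Hist1h2bn are near-identical, so these are not 9 separate signals. Hist1h2bj read 1.70, 1.999 and 1.59 after AMI and 1.62, 1.43 and 1.23 after vehicle, so that the groups overlapped, and differed by 0.33 (SE 0.14, adjusted p = 0.781 with limma). The members without overlap were H1f0, H2afz, Hist2h3b and Hist1h3e. H2afz read 3.28, 3.26 and 3.34 after AMI and 3.17, 3.12 and 2.95 after vehicle, a difference of 0.22 (SE 0.10, adjusted p = 0.781 with limma). The study lists H2afz as changed in the cortex on these same arrays, so this is no independent evidence. H1f0 differed by 0.22 (SE 0.11), Hist2h3b by 0.19 (SE 0.10) and Hist1h3e by 0.16 (SE 0.09), each with an adjusted p of 0.785 to 0.805 with limma.

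The members with the lowest cortical values after AMI were the H2A probes described above, at -0.47 for Hist1h2ao, -0.36 for Hist1h2an, -0.30 for Hist1h2af and -0.25 for Hist2h2ac, with SEs of 0.26 to 0.34 and overlapping groups. Their arrays were low in 2 of 3 AMI and 1 of 3 vehicle samples. The balance of all members depended on single arrays, with a median of -0.01 without cortical AMI replicate 2 and 0.19 without cortical AMI replicate 3. Without cortical vehicle replicate 3, 4 members had an unadjusted p under 0.05, all lower after AMI, where with all arrays there was only 1, which was higher. That omission gave such a p to 15.3% of all probes, a larger share than the members' 4 of 35.

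**Figure D4:**
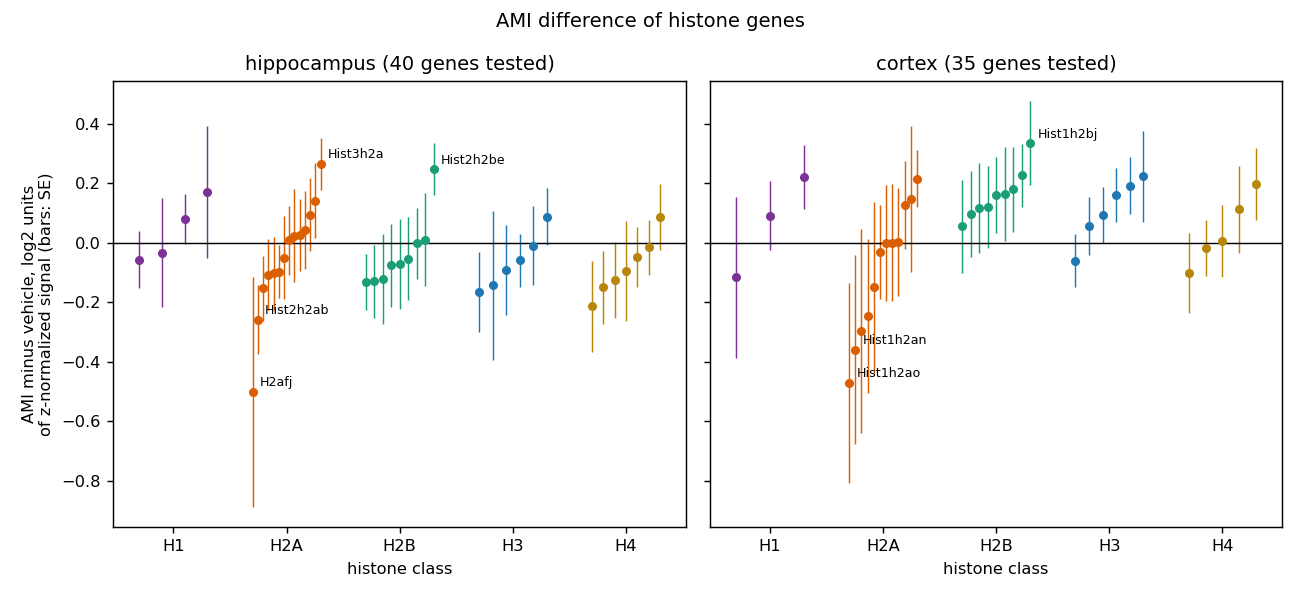
Points give the AMI minus vehicle difference of each tested histone gene by class, with bars for 1 SE, in the hippocampus (left) and the cortex (right), in log2 units of z-normalized signal. The named genes are those with an unadjusted p under 0.05 or among the 3 largest differences, and Hist3h2a and Hist2h2ab were not above background in 1 of the groups. In the cortex all 9 H2B points lie above 0 and the lowest H2A points reach -0.47, and no point passed an adjusted p of 0.05. Near-identical probes are drawn singly, so the points are not all separate signals.

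An interaction term asked whether AMI differences were unequal in hippocampus and cortex. None of 40 members passed an adjusted p of 0.05 with limma, nor did any gene (0% of 10267). At an unadjusted p under 0.05 there were 3 with limma, of 40, beside 3.27% of all genes (1.78% higher and 1.49% lower), namely Hist1h2bj (-0.46), Hist1h2be (-0.36) and H2afz (-0.31), where a value below 0 means a lower difference in the hippocampus than in the cortex. Of the 40 values 13 were above 0, beside 48.1% of all genes, and the smallest adjusted p of a member was 0.99985 with limma.

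Genes that work with histones give the setting. Of 25 proliferation markers on the array, 7 were detected on all 12 arrays (E2f1, Cdt1, Mcm4, Mcm5, Mcm6, Ccne1 and Rrm1) and 12 on none, among them Top2a, the topoisomerase of dividing cells, the cyclins Ccna2, Ccnb1 and Ccnb2, the mitotic kinase Cdc2a, the checkpoint kinase Bub1 and the replication clamp Pcna. Thus none of the mitotic markers listed here was detected on all arrays, and Plk1 and Birc5 were detected on 3 and 10 arrays. The neuron markers Snap25 and Nefl were detected on none either, so an undetected probe does not show that a transcript was absent. Between the tissues 2 of 11 tested proliferation markers were higher in the hippocampus and 5 lower, beside 24.1% and 18.9% of all tested genes. Higher were Mcm6 (0.63) and Tyms, which was detected on 6 hippocampal but 2 cortical arrays. Among the lower ones E2f1 stood at -1.16. The median over the 11 was -0.19, and that of the histone genes was 0.39. A part of proliferation in the histone differences was not tested.

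Among 12 genes of histone mRNA processing on the array, 6 were detected on all 12 arrays and 4 on none. The latter were Slbp, which binds the stem-loop of tailless histone mRNAs, Casp8ap2, Thex1, the exonuclease that trims the stem-loop end, and Zfp473. Lsm10 of the U7 particle was detected on all 12 arrays and Lsm11 on 7. Between the tissues 3 of 8 tested were higher in the hippocampus and 0 lower, beside 24.1% and 18.9% of all tested genes. The 3 were Upf1 (0.78), Ncbp2 (0.46) and Lsm11, which was detected on 5 hippocampal but 2 cortical arrays. Of 20 histone chaperones and deposition factors 15 were detected on all 12 arrays, among them Hira and Daxx, which deposit H3.3, and Anp32e, which removes H2A.Z. Of 16 tested, 3 were higher in the hippocampus and 3 lower, again beside 24.1% and 18.9% of all tested genes. Higher were Ep400 (0.46), Nap1l3 (0.38) and Ssrp1 (0.26), and lower were Rbbp7 (-0.54), Nap1l1 (-0.39) and Anp32e (-0.27). After AMI, 0 of these lists' tested genes passed in either tissue with limma. An unadjusted p under 0.05 was found for 1 of 11 tested proliferation markers in the hippocampus, beside 2.47% of all genes. In the cortex it was found for 2 of 16 tested chaperones, beside 5.3% of all genes. The genes were Mcm6 (0.26), and Asf1a (0.43), which hands H3 and H4 to other chaperones, and Nap1l3 (0.32), all higher after AMI.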

How the data were processed

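The authors hybridized RNA of each sample to an Illumina mouse array of 25697 probes and deposited, per probe, the mean bead intensity and a detection p-value, from BeadStudio 3.4 for the hippocampus and GenomeStudio 1.1.1 for the cortex. The deposited intensities were neither normalized nor background-subtracted, so the differences of dim probes are understated. Arrays detected 49.0% to 51.7% of probes (detection p of 0.05 or less), and their number limits the precision. Here log2 intensities were z-normalized within arrays, as the study's methods state. A probe entered a test when 3 or more arrays of either tissue used had detected it, and limma 3.58.1 in R 4.3.3 was fitted (lmFit, eBayes, Benjamini-Hochberg over all tested probes, threshold 0.05), unpaired, in each tissue and over all 12 arrays for the tissue contrast and the interaction. The fits were tested on simulated data. The labels do not tie samples to animals, so p-values measure the spread between these samples. Deviations of same-numbered hippocampal arrays correlated at 0.611, 0.296 and 0.293 for replicates 1 to 3. Differently numbered ones reached 0.28 (AMI 3 with vehicle 2) and 0.167 (AMI 2 with vehicle 3), and the other such pairs were negative. The hippocampal counts are also given with the number as a block, although the labels name no pairing and the fits reported are unpaired.

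Genes given by name were the replacement histones, cluster genes detected on all 12 arrays, members at an unadjusted p under 0.05, the 3 largest differences of a comparison and members detected in 1 group only, besides genes of marker and pathway lists. Germ cell forms and other undetected members are named to account for them. The members and lists were chosen with earlier results of these data known. Probe positions are those of the array annotation, whose build is not named, and gene positions are of RefSeq GRCm38.p6. Alternatives were quantile normalization, median centring, neqc (offset 16), no filter, a detection p of 0.01 on all arrays used, trend with robust variances, the replicate block, averaged probes, the methods' t-test, both tissues in one fit, other detection rules and leaving out each array. Normalization within GC classes, detection in both groups compared and leaving out a pair of arrays were added after the data were seen. Tables and figures used Python 3.11.15, numpy 2.4.6, pandas 2.3.3 and matplotlib 3.10.9.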

Additional observations from a re-analysis of the deposited data

How the results depend on the processing

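The number of detected histone genes per group stayed within 1.5 times of its value under a detection p of 0.01, detection on 2 of 3 arrays, any probe of a gene and without each array. In the AMI comparisons and the interaction 0 members passed an adjusted p of 0.05 under every alternative run. Numbers at an unadjusted p under 0.05 moved more, from 0 (median centring) to 5 (replicate block) in the hippocampus beside 2, from 0 to 6 (6 of 67 with no detection filter, beside 5.91% of all probes, and 6 of 35 without both cortical replicate 3 arrays, beside 15.05%) in the cortex beside 1, and from 0 to 6 for the interaction beside 3. Without 1 array they were 0 to 2, 0 to 4 and 1 to 4. The replicate block gave 2 in the cortex and 4 for the interaction, and 27 of 40 calls between the tissues, without Hist1h2ad and Hist1h2be. Deviations of same-numbered cortical arrays correlated at -0.0611 for replicate 1, 0.329 for replicate 2 and 0.333 for replicate 3. Differently numbered cortical arrays correlated at -0.421 to 0.271. What a shared number marks is not given by the labels.

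The 29 calls between the tissues became 21 to 31 under the alternatives (21 of 25 tested with the strict filter, 26 of 35 with detection in both tissues) and 24 to 29 without 1 array, and 21 of the 29 were called in each of 20 alternatives, those 2 filters left out. H1fx passed, lower in the hippocampus, after quantile normalization, after neqc and without cortical AMI or vehicle replicate 3. The direction of Hist1h1c turned (-0.0049 after quantile normalization, -0.0064 after neqc, -0.1063 to 0.0588 without 1 array), as did that of H3f3b (-0.0535 within GC classes, -0.0101 to 0.1975 without 1 array), which passed, higher, after median centring. The median of members was 0.0012 after median centring in the hippocampus and -0.0852 to 0.0002 without 1 array, and -0.0149 to 0.188 without 1 array in the cortex. The cause was not tested.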
